A study of Mus musculus with 28 samples.

Results

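The protein genes of the cytosolic ribosome were followed in mouse plasma cell tumors and normal B cells. The genes were taken by symbol, as Rpl or Rps with a number and an optional a, l, x or y ending, together with Rpsa, Rplp0, Rplp1 and Rplp2. Kinase genes of the Rps6k family were left out, and Rps4l was set aside because RefSeq lists it as a transcribed pseudogene. This gave 58 of the 19057 named genes on the array, of which 23 belong to the small and 35 to the large subunit. Each gene was read from its brightest probe, and 51 members, 21 of the small and 30 of the large subunit, were detected on at least 3 arrays and so were among the 11804 genes tested. The other 7, Rpl3l, Rpl6, Rpl14, Rpl17, Rpl39l, Rps20 and Rps23, were detected on 0 to 2 of the 28 arrays. Ribosomal protein genes outside the probe table, among them Rpl5, Rpl11 and Rps27, were not analysed here.

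The ribosome joins a small subunit, which reads the mRNA, to a large subunit, which forms the peptide bond and carries the exit tunnel for the new chain. Most ribosomal protein mRNAs start with a run of pyrimidines, the 5′ terminal oligopyrimidine (TOP) motif, through which mTOR and LARP1 set their translation. Ribosome production is raised by the transcription factor Myc, and plasma cells devote much of their protein synthesis to secreted antibody.

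RNA from 28 samples was hybridised to Illumina arrays. The normal group held 3 samples of splenic B cells of the BALB/c strain, at 90 days. The 14 adoptive-transfer tumors grew from transferred premalignant B cells and were sampled whole as oil granuloma tissue at 105 to 158 days. The 11 spontaneous tumors were sampled whole as lymph node tissue at 40 to 162 days. Every tumor is labelled C.iMyc/IL-6 (BALB/c background), which joins an inserted Myc gene to an IL-6 transgene, and the labels of the normal B cells give neither. Genotype, tissue and purification therefore differ together between tumors and normal B cells and cannot be told apart, and between the tumor kinds the tissue differs. Whether each sample is its own animal is not given in the labels, and the p-values cover the spread of these samples alone, which may be technical.

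The arrays detected 11544 to 16866 probes each. All 7 tested mature B cell markers were lower in both tumor kinds. The mean log2 level of the measured markers was 10.0 to 10.2 in the normal group, 5.44 to 6.92 in the adoptive-transfer group and 5.42 to 6.05 in the spontaneous group. Of 9 plasma cell markers 7 were higher in adoptive-transfer and 6 in spontaneous tumors, with mean levels per sample of 7.59 to 7.76, 7.79 to 10.2 and 9.31 to 10.4 in the same order of groups. Fibroblast and matrix markers, of which 6 of 8 were higher in each kind, averaged 4.63 to 4.70, 6.11 to 9.39 and 7.15 to 8.83. Exocrine pancreas markers averaged 5.05 to 5.30 in the normal group, 4.88 to 9.32 in the adoptive-transfer group and 4.79 to 14.5 in the spontaneous group, and 5 of 6 were higher in spontaneous tumors than in normal B cells. The T cell markers Cd4 and Cd8a and the adipocyte markers Fabp4 and Plin1 were detected on no array. The part of other cells in the results was not tested, and in whole tumors fewer cells of a type and less RNA per cell cannot be told apart. The Y-linked gene Eif2s3y was detected in all 3 normal samples, in 0 of 14 adoptive-transfer and in 8 of 11 spontaneous tumors, so the sex-linked signal also differed between groups. Adoptive-transfer tumor 5 stood apart. Its plasma cell markers were the lowest of all tumors, and its T cell, erythroid and neutrophil markers the highest of all samples. Adoptive-transfer tumor 1 had the fewest detected probes. Counts of called members are also given without tumor 5 and without both tumors, while most single values are given with them only.

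Most ribosomal protein probes lay at the bright end of the arrays. The median member ranked at percentile 99.7 to 99.9 of the named probes of its array, and 38 to 44 of the 51 tested members fell in the top 1%. The brightest were those of Rps29, Rplp1 and Rpl38, with mean log2 intensities of 15.31, 15.27 and 15.19 against an array maximum of 15.43. The dimmest tested were those of Rps15a, Rpl21 and Rpsa, the laminin receptor protein, whose probe was detected on only 3 arrays and had a mean level of 4.77 in normal B cells. Probe brightness also depends on the probe, so these values do not order the transcripts by abundance. Quantile normalization makes the array maximum equal on all arrays, and before it the maxima ran from 35128.8 to 52268.5 on the linear scale. Of the 51 tested members, 31 had a mean level of 14 or above. The median within-group SD of the members was 0.07 in normal B cells, 0.33 in adoptive-transfer and 0.16 in spontaneous tumors, against 0.15, 0.50 and 0.32 over all genes tested.

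Against normal B cells, 7 of 51 members were higher in adoptive-transfer tumors and 0 were lower (limma, adjusted p under 0.05), a share of 13.7% against a background of 36.5% of all genes tested. By direction the background was 19.8% higher and 16.7% lower. At an unadjusted p under 0.05 limma gave 11 members higher and 1 lower, and no share of all genes is given at that threshold. The median log2 fold change was 0.105 for the members and 0.105 for all genes, and with median scaling in place of quantile normalization it was 0.22 for the members and -0.08 for all genes. Read by brightest probe, the family thus held a few members with large changes among many with small ones. Further probes of several members with small changes rose more, as given below. The 4 highest were Rps27l, Rplp0, Rpl29 and Rpl13a, followed among the called members by Rpl24, Rps26 and Rps2.

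Rps27l, a paralog of the small-subunit gene Rps27 that p53 is known to induce, changed most among the brightest probes. Its log2 level was 11.02, 10.68 and 10.79 in the 3 normal samples, and the lowest, median and highest values were 11.42, 13.84 and 14.24 in adoptive-transfer tumors and 13.26, 13.48 and 14.04 in spontaneous tumors. Every tumor lay above every normal sample, with adoptive-transfer tumors 1 and 5, at 11.42 and 11.77, nearest to them. The log2 fold change was 2.70 ± 0.39 (SE) in adoptive-transfer tumors (limma adjusted p = 3.2e-06) and 2.69 ± 0.40 in spontaneous tumors (limma adjusted p = 4.8e-06), or 6.48-fold and 6.46-fold.

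Rplp0 encodes the base of the P stalk, which recruits translation factors to the large subunit, and it is a common reference gene in PCR. Its level was 7.18, 7.10 and 6.93 in normal B cells, 8.43, 9.61 and 9.92 (lowest, median, highest) in adoptive-transfer tumors and 8.78, 9.07 and 9.61 in spontaneous tumors. No tumor overlapped the normal samples. The log2 fold change was 2.41 ± 0.23 in adoptive-transfer tumors (limma adjusted p = 1.4e-09) and 2.09 ± 0.23 in spontaneous tumors (limma adjusted p = 3.1e-08). The other stalk genes did not pass the test. Rplp1 had log2 fold changes of -0.04 ± 0.14 and -0.02 ± 0.14, Rplp2 of -0.09 ± 0.20 and -0.26 ± 0.21 (0.08 and 0.05 with median scaling in place of quantile normalization), and Rpl12, whose protein binds beside the stalk, of 0.11 ± 0.14 and 0.10 ± 0.14. The Rplp0 probe was far dimmer than those of Rplp1, Rplp2 and Rpl12, which lay at mean levels near or above 14, and whether this sets the contrast was not tested. A further Rplp0 probe was detected on only 2 arrays.

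Rpl29, a small basic protein of the large subunit that also binds heparin, was nearly constant in normal B cells at 10.63, 10.63 and 10.62. It reached 11.08, 12.83 and 13.46 in adoptive-transfer and 11.61, 12.50 and 13.07 in spontaneous tumors. All tumors were above all normal samples. The log2 fold changes were 2.11 ± 0.31 and 1.72 ± 0.32 (limma adjusted p = 3.6e-06 and 8.1e-05).

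Rpl13a is part of the large subunit and, outside the ribosome, of a complex that represses inflammatory mRNAs. Its level was 10.39, 10.22 and 10.23 in normal B cells, 9.05, 12.13 and 12.95 in adoptive-transfer tumors and 11.29, 11.92 and 12.29 in spontaneous tumors. Adoptive-transfer tumor 5, at 9.05, was the only tumor below the normal samples. The log2 fold change was 1.63 in both kinds, with SE of 0.40 and 0.41 (limma adjusted p = 0.0018 and 0.0023).

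The other called members moved less. Rps26, a small-subunit protein at the mRNA exit site, was 13.89, 13.77 and 13.92 in normal B cells, 14.11, 14.51 and 14.92 in adoptive-transfer and 14.15, 14.32 and 14.71 in spontaneous tumors, with log2 fold changes of 0.64 ± 0.15 and 0.47 ± 0.15 (limma adjusted p = 9.6e-04 and 0.016). It did not overlap between tumors and normal B cells. Rpl24, a protein at the subunit interface, had log2 fold changes of 0.90 ± 0.31 and 0.83 ± 0.31 (limma adjusted p = 0.021 and 0.039), and adoptive-transfer tumor 5 lay below the normal samples at 11.72. Rps2, of the mRNA entry site, was called in adoptive-transfer tumors only, at 0.37 ± 0.14, and had 0.29 ± 0.14 in spontaneous tumors. Rpl24 and Rps2 lost their adoptive-transfer calls with median scaling, the Eif2s3y covariate, the fit on the 2 groups alone, and without normal sample 1 or 2. Rps26 lost its call in spontaneous tumors without normal sample 2. A difference between the kinds was not called for Rps26, Rpl24 or Rps2.

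**Figure D1:**
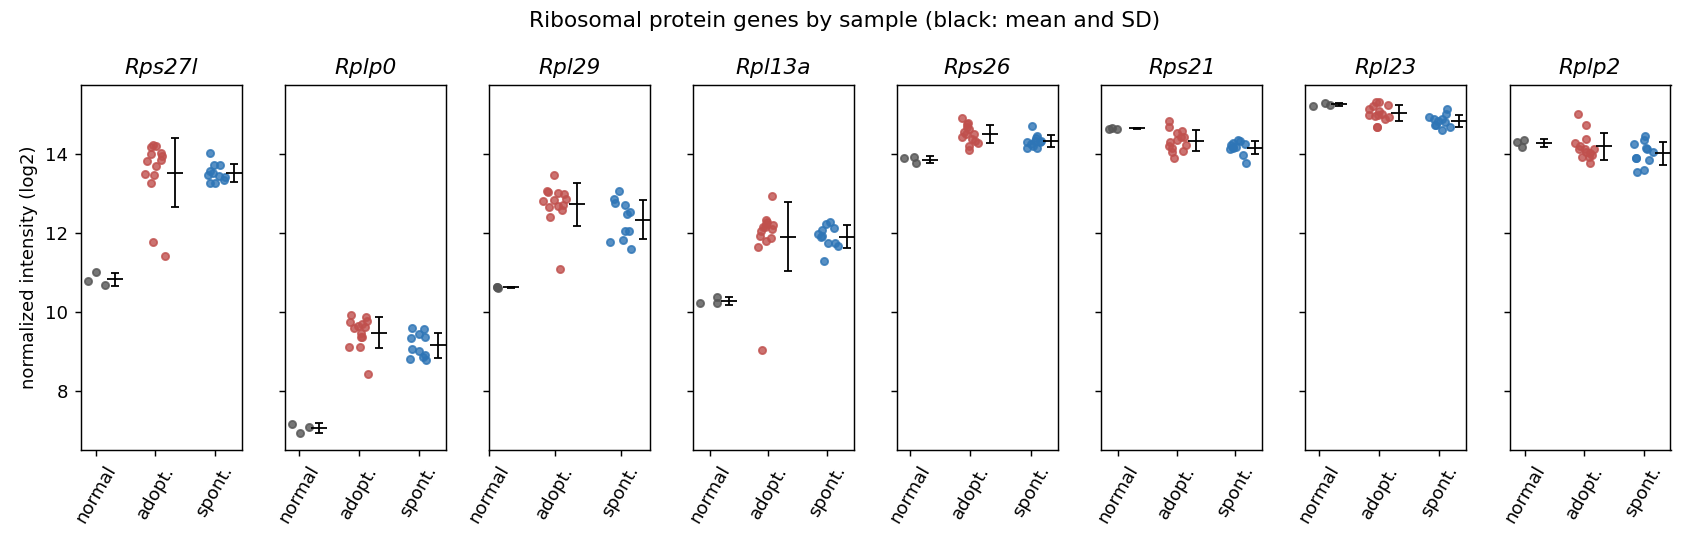
Normalized log2 intensity of 8 ribosomal protein genes in each sample, one point per sample, with the mean and SD in black. Rps27l, Rplp0, Rpl29 and Rps26 are above the normal B cells in all 25 tumors, Rpl13a in all but adoptive-transfer tumor 5, while Rps21 and Rpl23 are below them in all 11 spontaneous tumors.

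In spontaneous tumors, 8 members were higher and 2 lower than in normal B cells (limma), 19.6% of 51 against a background of 36.4% of all genes tested (18.5% higher and 17.9% lower). Without normal sample 1, 2 or 3 the higher members numbered 5, 4 and 5, and 0 were lower each time. The median log2 fold change was 0.053 against 0.083 for all genes. Besides the genes above, Rpl4, of the exit tunnel wall, had 0.85 ± 0.33 (adjusted p = 0.043) and Rpl28 had 0.40 ± 0.16 (adjusted p = 0.049). The calls of Rpl4, Rpl28 and Rpl24 were lost without any 1 of the normal samples and with median scaling. That of Rpl28 was also lost when most of the single tumors were left out. The 2 lower members were Rps21, a small-subunit protein, at -0.48 ± 0.16 (adjusted p = 0.019) and Rpl23, which also binds the p53 regulator MDM2, at -0.41 ± 0.14 (adjusted p = 0.022). Rps21 was 14.63, 14.64 and 14.67 in normal B cells and 13.77, 14.18 and 14.35 in spontaneous tumors. Rpl23 was 15.22, 15.25 and 15.30 against 14.62, 14.84 and 15.14. Both were below the normal samples in every spontaneous tumor, and both overlapped them in adoptive-transfer tumors. Both calls were lost without any 1 of the normal samples and with median scaling. They were also lost with a block on replicate number, which bears little on them because these numbers did not pair the samples. The sign of Rpl23 also depended on the probe: the mean of its detected probes had 0.088, and its dimmest tested probe had 0.77 and did not pass the test.

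The lowest values in either kind that did not pass the test belonged to Rpl22, which can bind viral and cellular RNAs outside the ribosome, with -0.38 ± 0.40 and -0.54 ± 0.41, and to Rpl39, of the exit tunnel, with -0.31 ± 0.13 and -0.34 ± 0.14. Rpl39 was called lower in 5 of 13 alternative settings in adoptive-transfer tumors and in 8 of 13 in spontaneous tumors. With single samples left out, it was called in 1 and 6 of 28 fits. Rps16 had -0.29 ± 0.21 in adoptive-transfer tumors, and Rps21 had -0.31 ± 0.16 there. Rpl7a had 0.79 ± 0.44 and 1.02 ± 0.45 and did not pass the test in either kind. Its values were 8.96 and 9.33 in adoptive-transfer tumors 1 and 5, below the 10.58 to 10.73 of normal B cells.

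In all adoptive-transfer tumors 5 members, Rps27l, Rplp0, Rpl29, Rps26 and Rpl38, lay above every normal sample, against 9.74% of all genes tested, and 0 members lay below, against 9.65%. In all spontaneous tumors 11 members lay above, against 20.2% of all genes, and 4 below (Rps21, Rpl23, Rpl39 and Rpl27a), against 18.4%. At 5 and 11 of 51, the members lying above all normal samples were about as frequent as genes in general.

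**Figure D2:**
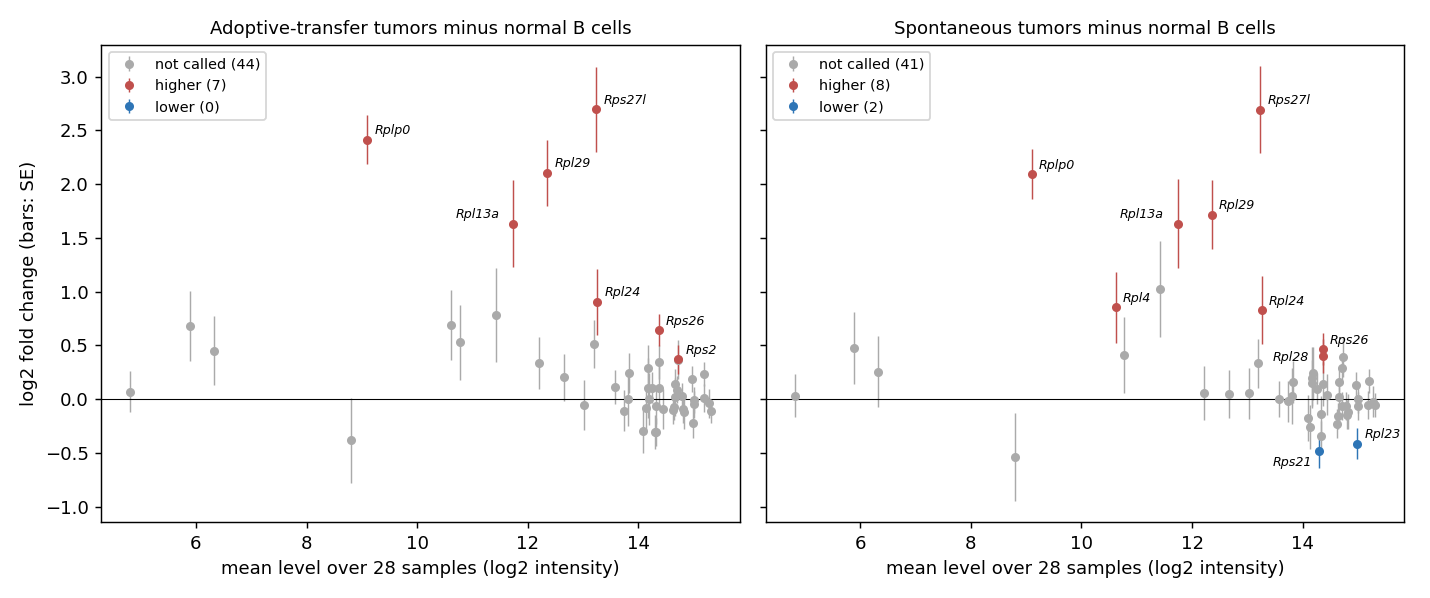
Log2 fold change against normal B cells (SE as bars) over the mean log2 intensity of each of the 51 tested members. The bright members with a mean level of 14 or above stay between -0.31 and 0.64 in adoptive-transfer tumors, and the members with large rises lie at lower levels.

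The size of a change went with the level of the probe. Of the 31 members with a mean level of 14 or above, 2 were higher and 0 lower in adoptive-transfer tumors, with a range of -0.31 to 0.64, and 2 were higher and 2 lower in spontaneous tumors. Of the 20 dimmer members, 5 (25%) were higher in adoptive-transfer and 6 (30%) in spontaneous tumors and 0 were lower in either kind. Over all genes tested 19.8% and 18.5% were higher and 16.7% and 17.9% lower, so the higher shares of the dimmer members were not far above the background. The median log2 fold change of the bright members was -0.02 in spontaneous tumors, against 0.29 for the dimmer ones. In adoptive-transfer tumors the bright members had -0.003 and the dimmer ones 0.48. The bright probes lay close to the array maximum, and the part of that in this contrast was not tested. By subunit, 3 of 21 small-subunit and 4 of 30 large-subunit members were higher in adoptive-transfer tumors, against 19.8% of all genes. In spontaneous tumors 2 and 6 were higher, against 18.5%.

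Between the tumor kinds no member was called (limma), while 2.73% of all genes were (1.37% higher and 1.36% lower). At an unadjusted p under 0.05 there were 2 members, with no share of all genes given at that threshold. The log2 differences, adoptive-transfer minus spontaneous, ran from -0.24 ± 0.15 for Rps6, the substrate of S6 kinase, to 0.39 ± 0.20 for Rpl29, with 0.32 ± 0.14 for Rplp0 and 0.28 ± 0.16 for Rpl19. For Rps27l the 95% interval of the difference was -0.49 to 0.49, and for Rpl13a it was -0.50 to 0.50. Among the remaining extremes Rpl21 had 0.21 ± 0.21, Rps7 -0.14 ± 0.12, Rpl4 -0.17 ± 0.20 and Rpl7a -0.24 ± 0.28.

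Adoptive-transfer tumor 5 bore on these counts. The mean over the 51 members was 12.67 in this tumor and 13.19 to 13.52 in the other 13 adoptive-transfer tumors, against 13.04 to 13.08 in the normal group and 13.11 to 13.40 in the spontaneous group. In 24 of 25 tumors the mean was above every normal sample. The median over the members, which the few large rises move less, was above every normal sample in 20 tumors and below every one in 3. In tumor 5, 27 of 51 members (52.9%) were below all other adoptive-transfer tumors, against 22.3% of all genes tested, and its median difference from them was -0.54 for the members and -0.11 for all genes. The largest gaps were -3.10 for Rpl13a, -2.51 for Rpl7a and -2.22 for Rpl4. Its plasma cell and endothelium markers, at 7.79 and 5.29, were the lowest of the tumors, and its mature B cell, T cell, erythroid and neutrophil markers, at 6.92, 7.53, 12.7 and 9.53, the highest, and their part in these gaps was not tested. Without it, 23.5% of all genes were higher and 19.2% lower in adoptive-transfer tumors. In that fit 14 members were higher and 0 lower, adding Rpl4, Rpl7a, Rpl19, Rpl21, Rpl28, Rpl30 and Rpl35, and 3 members, Rpl19, Rpl29 and Rplp0, were called higher than in spontaneous tumors, against 3.06% of all genes. Rpl13a in adoptive-transfer tumors rose by 1.86 without it.

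**Figure D3:**
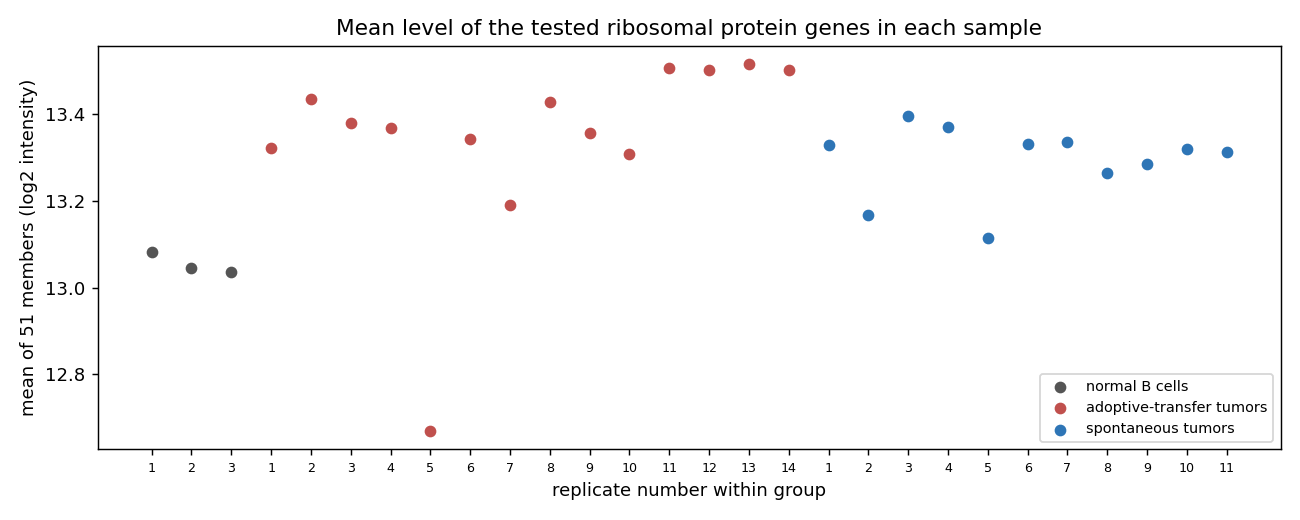
Mean log2 intensity over the 51 tested ribosomal protein genes in each of the 28 samples. Adoptive-transfer tumor 5 is lowest at 12.67, and the other 24 tumors lie above the 3 normal samples.

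To compare members with each other, each array's member mean was subtracted and the fit repeated over all genes. Relative to that mean, Rps27l, Rplp0, Rpl29, Rpl13a and Rpl24 were higher in adoptive-transfer tumors, at 2.40, 2.12, 1.81, 1.34 and 0.61. In the same fit 8 members were lower, from -0.38 for Rps7 to -0.60 for Rps21, with Rpl39 at -0.60, Rps16 at -0.58 and Rpl23 at -0.51. The count of lower members was 4, 2 and 3 without normal sample 1, 2 or 3, 2 with the replicate block and 16 without adoptive-transfer tumor 5. For these alternatives no share of all genes is given. The background in the fit over all samples was 37.2% of all genes, 13.8% higher and 23.4% lower. Rpl22 had the lowest value, -0.68, and did not pass the test. In spontaneous tumors the same leading members, without Rpl24, were higher (4 in all), and Rps21, Rpl23, Rpl39 and Rpl27a were lower at -0.72, -0.65, -0.58 and -0.47, against 36.5% of all genes called, 13.9% higher and 22.6% lower. Without adoptive-transfer tumor 5, 11 were lower, with no share of all genes given. Because the members that rose enter the mean, lower values in this fit are relative to it. Between the tumor kinds no member was called, against 2.25% of genes (0.601% higher and 1.65% lower), and the values ran from -0.29 for Rps6 to 0.34 for Rpl29.

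Promoter sequence was looked up because most ribosomal protein genes start at a pyrimidine run. RefSeq promoters on GRCm38.p6 were found for 48 of 58 members, 58 starts in all. The longest run of C and T within 25 bases of the start had at least 8 bases at 25 of these starts (43.1%), against 19.9% of all 32851 promoters. The short sequence CCGGAAG, searched on both strands in the 300 bases around the start, was in 23 of 58 (39.7%) against 8.86% of all promoters. Neither a match nor its absence shows a site in use. AAGATGG was in 12.1% against 6.34%, CACGTG, the E-box bound by Myc, in 13.8% against 7.15%, and TATAAA in 8.62% against 13.6%.

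The windows below run 5′ to 3′ from 40 bases before to 40 after the annotated start. They cover the 3 genes that rose most by brightest probe among those with an entry, Rps26, and 3 genes whose probes disagreed. Capitals mark the longest pyrimidine run within 25 bases of the start. For Rps27l and Rps24, which have 2 listed starts, the one listed first is shown. In Rps27l the marked run is the first of 2 of equal length, and the other lies nearer the start.
Rps27l, chr9:66946046-66946125, plus strand: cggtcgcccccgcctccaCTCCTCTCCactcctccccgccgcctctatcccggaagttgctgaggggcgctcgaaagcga
Rplp0, chr5:115559427-115559506, plus strand: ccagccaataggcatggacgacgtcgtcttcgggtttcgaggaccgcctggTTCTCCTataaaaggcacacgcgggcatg
Rpl13a, chr7:45128706-45128785, minus strand: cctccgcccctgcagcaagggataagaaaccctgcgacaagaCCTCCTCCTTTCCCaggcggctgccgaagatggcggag
Rps26, chr10:128626467-128626546, minus strand: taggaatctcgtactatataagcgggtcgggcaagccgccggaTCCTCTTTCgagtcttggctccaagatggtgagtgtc
Rps24, chr14:24490638-24490717, plus strand: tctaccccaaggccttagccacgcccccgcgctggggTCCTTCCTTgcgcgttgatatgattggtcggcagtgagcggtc
Rpl38, chr11:114668540-114668619, plus strand: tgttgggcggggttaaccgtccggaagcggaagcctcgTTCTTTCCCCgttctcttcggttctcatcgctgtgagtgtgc
Rpl31, chr1:39367811-39367890, plus strand: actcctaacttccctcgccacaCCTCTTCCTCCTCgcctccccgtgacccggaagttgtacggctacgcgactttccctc
The run was 14 bases long in Rpl13a, 13 in Rpl31, 10 in Rpl38, 9 in Rps27l, Rps26 and Rps24 and 7 in Rplp0. At the other listed starts of Rps27l and Rps24 the longest run within 25 bases had 5 and 7 bases. Both runs begin at the edge of the stretch searched and may extend beyond it.

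Several members had a further detected probe that changed far more than the brightest one. Members had 87 probes in all, and 15 genes had several detected probes, which gave 21 probes besides the brightest. Of these, 8 probes of 7 genes were higher in adoptive-transfer and 7 in spontaneous tumors, and 0 were lower (limma over single probes), against 17.1% and 16.5% of all single probes higher and 18.2% and 18.8% lower, or 35.3% in either direction for each kind. Between the tumor kinds 1 of the 21 was called, against 2.14% of single probes (0.957% higher and 1.19% lower). The 7 genes are named after their values were seen.

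Rps24, a Diamond-Blackfan anemia gene spliced in several ways at its 3′ end, showed the widest gap. Its brightest probe was at 14.92, 14.87 and 14.93 in normal B cells and had log2 fold changes of -0.09 and -0.15. Its other probe, annotated to another RefSeq transcript of the gene, was at 7.91, 7.51 and 7.50 in normal B cells, at 7.89, 10.99 and 11.32 (lowest, median, highest) in adoptive-transfer and at 9.89, 10.53 and 11.01 in spontaneous tumors. Tumor 5 of the adoptive-transfer group had the 7.89, within the normal range, and all other tumors lay above it. This probe had log2 fold changes of 3.08 ± 0.41 and 2.85 ± 0.41 (limma adjusted p = 5.8e-07 and 2.8e-06). A further probe of the gene had 0.83 ± 0.62 and 0.85 ± 0.64.

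Rpl38, which in mice is needed for translation of some Hox mRNAs, had a second probe at 7.63, 7.71 and 7.63 in normal B cells, 9.07, 10.49 and 11.41 in adoptive-transfer and 9.18, 9.57 and 9.96 in spontaneous tumors. No tumor overlapped the normal samples. The log2 fold changes of this probe were 2.81 ± 0.26 and 1.96 ± 0.27, against 0.23 ± 0.11 and 0.17 ± 0.12 for the brightest, which lay between 14.92 and 15.40 in every sample. Both probes are annotated to the same transcript.

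The further probes of Rpl31, a large-subunit protein near the tunnel exit, had log2 fold changes of 1.66 and 1.70 in adoptive-transfer tumors and 1.31 each in spontaneous tumors, against 0.10 and 0.14 for its brightest probe. For Rpl29, whose brightest probe was itself higher, the other probe had 4.75 ± 1.00 and 3.26 ± 1.02. It was at 5.27, 5.59 and 5.42 in normal B cells and ranged from 6.91 to 10.87 in adoptive-transfer and from 5.75 to 11.33 in spontaneous tumors. Smaller values were found for Rpl28 (1.34 and 1.40), Rps19 (1.04 and 0.81) and Rpl23 (0.91 and 0.77), of which Rpl23 passed the test in adoptive-transfer tumors only. For Rpl29 the other probe exceeded the brightest within arrays by 2.65 ± 0.78 and 1.55 ± 0.80 (limma adjusted p = 0.015 and 0.20). Among the alternatives this Rpl29 difference fell to 1.00 in adoptive-transfer and 0.39 in spontaneous tumors.

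The difference between the 2 probes was tested within each array over all genes with several detected probes. It was higher for 8 of the 21 member probes in adoptive-transfer and for 7 in spontaneous tumors, against 6.97% and 7.48% of 6858 probes, and lower for 0, against 12.0% and 11.9% (19.0% and 19.4% in either direction). The gap was 3.17 ± 0.43 and 3.00 ± 0.44 for Rps24, 2.58 ± 0.28 and 1.79 ± 0.28 for Rpl38, and 1.55 ± 0.31 and 1.17 ± 0.32 for the brighter of the Rpl31 probes (limma, adjusted p of at most 0.0091 for these 3 genes). The brightest probes of these genes lay near the array maximum, and the part of that in the gaps was not tested. Without background correction the gap of Rps24 was 2.62 and that of Rpl38 2.02 in adoptive-transfer tumors. The Rpl31 gap in spontaneous tumors was 0.52 with median scaling and lost its call (limma adjusted p = 0.23), as it did without normal sample 3 (limma adjusted p = 0.062).

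**Figure D4:**
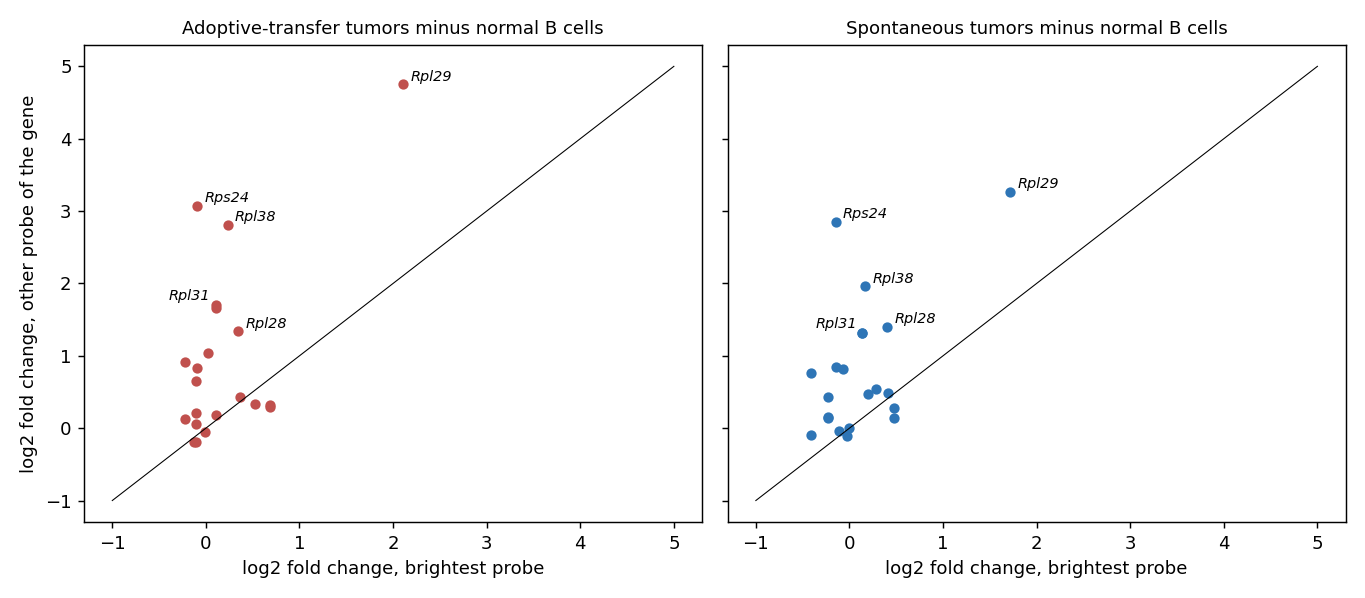
Log2 fold change against normal B cells of each further detected probe (vertical) over that of the gene's brightest probe (horizontal); the line marks equal values. Rps24, Rpl38 and Rpl31 lie far above the line, at 3.08, 2.81 and up to 1.70 in adoptive-transfer tumors for brightest-probe values of -0.09, 0.23 and 0.10.

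Read by brightest probe, members grouped by role showed the same pattern of single genes. The list of genes mutated in human Diamond-Blackfan anemia, an inherited red cell failure, held 10 tested members. By brightest probe, Rps26 alone was higher in either kind, and 0 were lower. This is 10% called, against 36.5% and 36.4% of all genes, and the list medians were 0.06 and 0.04. Rps24, also on this list, had another probe that was higher in both kinds, as given above. Among paralogs, Rpl22l1, the partner gene of Rpl22, had 0.26 and 0.02 beside -0.38 and -0.54 for Rpl22, and neither passed the test. The muscle paralog Rpl3l was detected on 2 arrays and Rpl39l, of the testis, on 0. Their parents Rpl3 and Rpl39 were bright on all arrays. The other ribosomal protein genes outside the symbol rule, Rps3a1, Rpl36al and Rpl7l1, also did not pass the test, and the list of 4 had medians of 0.48 and 0.45.

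In the 11 spontaneous tumors, aged 40 to 162 days, no member and no gene was called for a slope on age (limma). At an unadjusted p under 0.05 there were 3 members (5.88%) and 1339 of 11804 genes (11.3%). The steepest slopes were 0.27 ± 0.14 and 0.19 ± 0.35 log2 units per 100 days for Rpl32 and Rpl29, and -0.53 ± 0.19 and -0.52 ± 0.24 for Rps15a and Rpl4.

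Several other lists of protein synthesis genes held larger shares of called genes. Of 74 tested mitochondrial ribosomal protein genes, 50 were higher in adoptive-transfer and 42 in spontaneous tumors and 0 lower, against 19.8% and 18.5% of all genes higher. Their median log2 fold changes were 1.04 and 0.82, with Mrpl17 highest in adoptive-transfer tumors at 2.36, Mrpl34 in spontaneous tumors at 2.13, and Mrpl57 lowest in both at -0.25 and -0.31. Of 28 ribosome assembly factors, 13 rose and 1 fell in the adoptive-transfer group, and 12 rose and 1 fell in the spontaneous group. Their called share was 50% and 46.4%, against 36.5% and 36.4% of all genes. Rrp9, of the U3 particle that processes rRNA, had 1.66 ± 0.23 and 1.23 ± 0.23, Gnl3, a nucleolar GTPase, had 1.51 ± 0.37 and 1.74 ± 0.37, Polr1a, the largest subunit of RNA polymerase I, had 1.48 ± 0.25 and 1.00 ± 0.26, and Sbds, a late 60S maturation factor, was lower at -0.79 ± 0.18 and -0.69 ± 0.18.

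Of 22 initiation factors and their regulators, 12 were higher and 1 lower, then 9 and 1. The called share was 59.1% in adoptive-transfer and 45.5% in spontaneous tumors, against 36.5% and 36.4% of all genes. The highest was Eif4ebp1, the mTOR-controlled repressor of cap-dependent initiation, with 2.67 ± 0.31 and 2.72 ± 0.32, and the lowest was Eif5 with -0.76 and -0.52. Of 15 genes of mTOR and LARP1 control, 5 rose and 2 fell in the adoptive-transfer group, and 4 rose and 2 fell in the spontaneous group, Eif4ebp1 again highest. Their called share was 46.7% and 40%, and the latter was near the 36.4% of all genes. Deptor, an mTOR inhibitor, rose by 1.41 ± 0.33 and 1.89 ± 0.34, and Rictor, of mTOR complex 2, fell by 1.33 and 1.16. Of 11 factors that handle the nascent chain, 6 (54.5%) were higher in each kind and 0 lower, against 19.8% and 18.5% of all genes higher. They were led by Sec61a1, the channel of the endoplasmic reticulum, with 2.28 ± 0.29 and 2.51 ± 0.30.

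Among 19 other genes whose mRNAs carry a TOP motif, 6 rose and 1 fell in the adoptive-transfer group, and 5 rose and 2 fell in the spontaneous group, with medians of 0.17 and 0.34. Their share of called genes, 36.8% in each kind, was close to the 36.5% and 36.4% of all genes. Eif4b, an initiation factor, was highest, with 1.28 in adoptive-transfer tumors, where it did not pass the test, and 1.81 ± 0.61 in spontaneous tumors. Eif4a2 was lowest at -1.14 ± 0.31 and -1.38 ± 0.32. The elongation factor Eef1b2 had 1.07 ± 0.26 and 1.12 ± 0.27. These lists were chosen with earlier results of the same arrays known, and differences between lists were not tested.

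**Figure D5:**
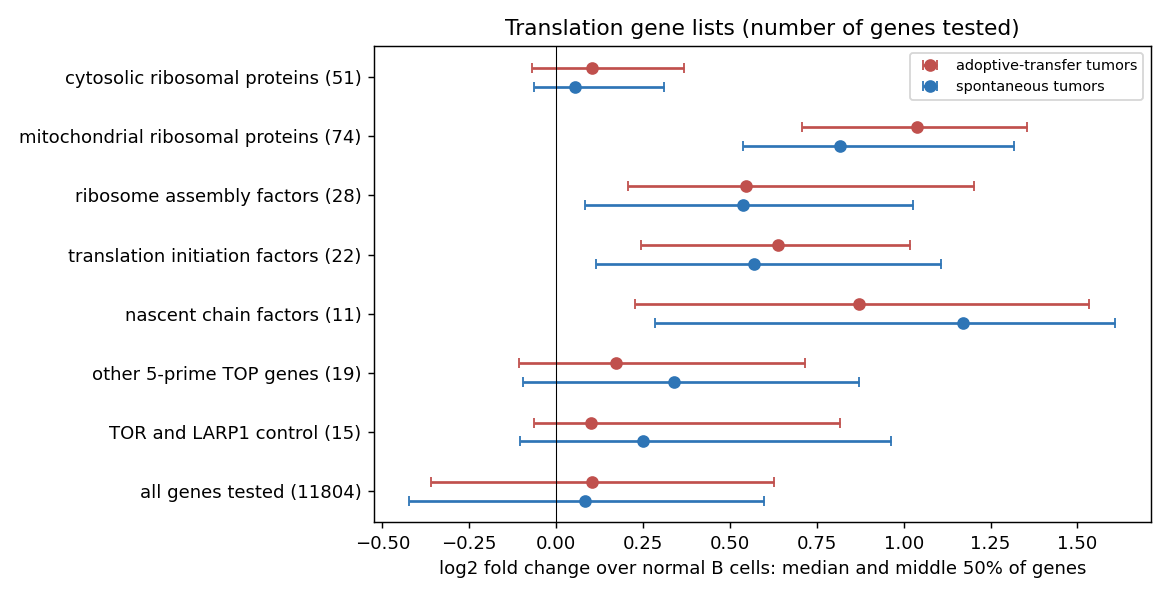
Median log2 fold change against normal B cells (points) and the middle 50% of genes (bars) for the cytosolic ribosomal proteins, 6 further translation lists and all genes tested. The cytosolic ribosomal proteins sit at 0.105 and 0.053, near all genes at 0.105 and 0.083 under quantile normalization (with median scaling 0.22 and 0.29 against -0.08 and -0.07), and the mitochondrial ribosomal proteins at 1.04 and 0.82.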

How the data were processed

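The authors deposited a table of probe intensity values on a linear scale, without normalization, with a detection score per probe; by its values the deposited score is a fraction from 0 to 1 that rises with intensity, and 1 minus it was taken as the detection p. They also deposited log2 values, whose columns all have the same median and rank probes almost as the intensities do. Partek appears in the submitters' processing notes, with no version or step.

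Intensities of 45281 probes were background-corrected with neqc (offset 16), quantile normalized over 28 arrays and log2 transformed in R 4.3.3 with limma 3.58.1. The probe annotation gives 1 symbol for 34885 probes, several for 18 and none for 10378. The brightest probe stood for its gene, and a gene was tested if detected (p under 0.05) on at least 3 arrays. A limma model over all groups gave 3 contrasts, with Benjamini-Hochberg adjustment over 11804 genes at 0.05. Errors are SE of the model. Array number limits precision. Tested on simulated data for the adoptive-transfer contrast (11804 genes), the fit called 27 of 50 genes raised by 1 log2 unit, 44 of 50 raised by 2, and 8 of 11604 unchanged genes. The simulation gave a gene the same SD in all groups and changed few genes. In the data the SD differed by group and 36.5% of genes were called, so these rates do not carry over to them. A separate model fitted age in spontaneous tumors. No per-sample column was left unused (0).

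The members and lists were chosen with earlier results of these data known. Named genes were the 4 highest and 4 lowest members of each contrast, the 2 highest and 2 lowest age slopes, the stalk, paralog and outside-rule genes, the 3 brightest and 3 dimmest members, and the extremes of each list. Probe differences and further examples were chosen after seeing the values. Alternatives covered background correction, normalization, filter, probe choice, samples fitted, array weights, a sex-linked covariate, a replicate block and leaving out samples.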

Additional observations from a re-analysis of the deposited data

Results flagged for a closer look

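The dimmer Rpl38 probe differed between the tumor kinds, with 0.85 ± 0.17 log2 units more in adoptive-transfer than in spontaneous tumors (limma over single probes, adjusted p = 0.0069), while the brightest Rpl38 probe differed by 0.06 ± 0.07. The difference between these probes was 0.79 ± 0.18 (limma adjusted p = 0.032), the only called one of 21 member probes, against a background of 0.437% of probes. The pair was singled out after its values were seen, and tissue and tumor kind coincide.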

How the results depend on the processing

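Rps27l, Rplp0, Rpl29 and Rpl13a stayed higher in both tumor kinds in the alternatives run, except that the dimmer Rplp0 probe was not tested. Counts of called members moved, and the cause was not tested. For alternatives printed without a share of all genes, general changes in calls cannot be told from changes in the members. In adoptive-transfer tumors 1 member was lower without background correction, with an offset of 50, with the deposited log2 table, without the filter and without tumors 1 and 5 together; the latter setting gave 15 higher, and 2 higher than in spontaneous tumors. With the mean of detected probes 11 were higher, and 1 between the kinds, as with the next brightest probe, which left 1 lower in spontaneous tumors. Array weights gave 22 higher and 3 lower for adoptive-transfer tumors, 15 and 7 in spontaneous tumors, and 2 higher between the kinds; calls rose over all genes too, to 34.8% higher and 26.3% lower, 33.0% and 27.7%, and 4.61% higher between the kinds. In spontaneous tumors median scaling gave 5 higher and 0 lower with a member median of 0.29, the Eif2s3y covariate gave 5 higher, and the fit on the 2 groups alone gave 4 lower. Relative to the member mean, lower members numbered 7 without background correction and 8 in the deposited table (spontaneous), and 5 with median scaling (adoptive-transfer). The mean of probes gave 8 higher and 14 lower, 7 and 10, and 1 between the kinds.

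Median scaling raised the member median in adoptive-transfer tumors to 0.22, moved the all-gene median from 0.10 to -0.08 and from 0.08 to -0.07 and moved the share of higher calls from 54.3% to 33.3% and from 50.8% to 32.2%, while 41 and 42 of 51 members were positive. Signs turned for Rplp2 (0.081 and 0.053) and, between the kinds, for Rpl12 (-0.15), Rps27l (-0.19) and the member median (-0.04). Rpl23 turned to 0.088 in spontaneous tumors with the mean of probes. Between the kinds array weights turned Rps7 (0.0097), Rpl4 (0.044) and Rpl7a (0.13), and leaving out tumors 1 and 5 turned Rps7 (0.00667), Rpl7a (0.14) and Rplp1 (0.020).

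Leaving out each sample in turn gave 5 to 14 higher and 0 to 1 lower members for the adoptive-transfer group, 4 to 10 and 0 to 3 for the spontaneous group and 0 to 3 higher between the kinds. Relative to the member mean it gave 2 to 16 lower (adoptive-transfer) and 3 to 11 lower (spontaneous). The highest counts of higher members came without adoptive-transfer tumor 5, and leaving out a normal sample gave 4 or 5 higher in spontaneous tumors. Rplp1 ran from -0.084 to 0.022 and from -0.066 to 0.040 against normal B cells. Between the kinds Rplp1 ran from -0.056 to 0.014, Rpl12 from -0.017 to 0.050 and Rps27l from -0.051 to 0.165.

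Replicate numbers did not pair the samples: same-numbered tumors correlated by -0.08 to 0.22, over 0.1 in 3 of 11 pairs. With the replicate block 7 members rose and 0 fell in each tumor kind, 2 were lower relative to the member mean in adoptive-transfer tumors, and Rpl12 between the kinds was -0.043. Without background correction the probe gaps of Rpl28 and Rps19 lost their calls in both tumor kinds, and that of Rpl29 in adoptive-transfer tumors. With median scaling those of Rpl31, Rpl28 and Rps19 lost them in spontaneous tumors. The brightest probes lay near the array maximum, and whether this limits what they can show was not tested. The 3 normal samples limit every contrast with them.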
